A study of Mus musculus with 2 samples.

Results

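RNA Pol II ChIA-PET in mouse embryonic stem cells (ESCs) gave 10274 well-linked anchors in control cells, and 1033 of them (10.1%) overlapped no anchor of the Ronin knockout library. An anchor is an RNA Pol II peak that is joined to another peak by at least 1 paired-end tag (PET), and it was called well-linked when its PETs summed to at least 5 over all of its pairs, within and between chromosomes. The paper instead required 3 independent PETs for a high-confidence pair. It left contacts between chromosomes out of its later Ronin analyses because of reported noise. Well-linked anchors are therefore not the loop anchors of the paper. The 1033 anchors, called absent anchors here, were chosen by the absence of even 1 bp of overlap with any anchor of the knockout library, so that absence is the selection and not a result. The control library held 27757 anchors in all, of which 11714 (42.2%) overlapped no knockout anchor. In the other direction, 32 of 4930 knockout anchors with at least 5 PETs (0.649%) overlapped no control anchor, and 1741 of all 17539 knockout anchors (9.93%) did not.

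Both groups were ESCs of the same genotype, CreERT2; Roninflox/flox, derived from 1 line that carries floxed Ronin alleles and a tamoxifen-activated Cre recombinase expressed from a ubiquitous promoter. Control cells received ethanol for 4 days and Ronin knockout cells received tamoxifen for 4 days, so tamoxifen itself and the loss of Ronin cannot be told apart. Chromatin was precipitated with the RNA Pol II antibody 8WG16, and the authors merged 2 experiments per condition into 1 set of interactions. No spread between replicates could therefore be computed and no test between the conditions was made, and the intervals below are exact binomial 95% intervals that cover counting error only. The files list contacts and no transcript or protein level, so the deletion of Ronin could not be checked with them. By gene list, 38 well-linked control anchors lay at 29 genes of a pluripotency list, 1 at a fibroblast gene and 0 at a primitive endoderm gene. The lists were of unlike length, so these counts are not compared with each other.

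ChIA-PET captures chromatin bound by one protein, here RNA Pol II, and ligates DNA ends held near each other in it. RNA Pol II gathers at the starts of active genes, and a PET between 2 peaks is the read-out of 1 ligation. Ronin (Thap11) is a zinc-dependent DNA-binding protein of the THAP family that is essential in ESCs and binds a conserved motif near the starts of many housekeeping genes.

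Exact copies of the Ronin-binding motif, searched on both strands, lay in 8 of the 1033 absent anchors (0.774%) against 198 of all 10274 well-linked anchors (1.93%). The absent anchors were narrower, and per Mb of anchor sequence the motif was about as frequent in them (1.65 copies) as in the other well-linked anchors (1.54 copies). The sites at or near gene starts are shown here with 40 bp on either side, on the strand that carries the motif and in the mm9 (NCBIM37) assembly. Capitals mark the motif.
Nfxl1, chr5:72950878-72950972, minus strand: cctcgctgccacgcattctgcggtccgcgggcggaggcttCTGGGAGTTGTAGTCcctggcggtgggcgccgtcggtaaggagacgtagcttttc
Nfxl1, chr5:72951017-72951111, minus strand: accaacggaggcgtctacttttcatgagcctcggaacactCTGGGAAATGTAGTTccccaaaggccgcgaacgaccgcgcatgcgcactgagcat
Asb13, chr13:3633190-3633284, minus strand: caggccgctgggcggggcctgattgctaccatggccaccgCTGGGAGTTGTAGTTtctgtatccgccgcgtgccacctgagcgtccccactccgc
Zfp369, chr13:65380060-65380154, plus strand: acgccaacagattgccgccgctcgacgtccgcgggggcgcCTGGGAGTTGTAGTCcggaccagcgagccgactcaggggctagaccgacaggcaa
Bet1, chr6:4036962-4037056, plus strand: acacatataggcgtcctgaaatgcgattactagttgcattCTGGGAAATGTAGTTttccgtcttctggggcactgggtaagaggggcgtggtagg
Zfp93, chr7:25055323-25055417, plus strand: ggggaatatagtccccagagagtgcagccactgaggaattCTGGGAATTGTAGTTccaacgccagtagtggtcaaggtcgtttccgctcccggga
Zfp111, chr7:24993180-24993274, minus strand: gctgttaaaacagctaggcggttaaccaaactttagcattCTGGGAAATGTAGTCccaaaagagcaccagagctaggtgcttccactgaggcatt

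The middle of the motif lay 2 bp and 141 bp upstream of the annotated start of Nfxl1, which encodes a zinc finger protein related to the transcriptional repressor NFX1. It lay 41 bp upstream at Asb13, which encodes a SOCS-box protein, 37 bp upstream at Bet1, which encodes a SNARE protein of transport from the endoplasmic reticulum to the Golgi, 15 bp upstream at Zfp369 and 69 bp upstream at Zfp93. At Zfp111 the motif was 3235 bp downstream of the start, inside the gene. The remaining pair of sites were far from any annotated protein-coding start, 1 in an anchor at the noncoding genes 2610035D17Rik and 4732490B19Rik on chromosome 11 and 1 in an anchor without annotation on chromosome 7. With 1 mismatch allowed, the motif was found in 31 absent anchors (3.0%) and in 616 of the other 9241 well-linked anchors (6.67%). These shares are per anchor and were not adjusted for the narrower width of the absent anchors.

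The absent anchors were short and lightly linked compared with the rest. Their median width was 4656 bp (558 to 36445 bp), against 9653 bp for the other well-linked anchors. They held a median of 6 PETs, against 12, and 381 of them sat at the threshold of 5 PETs. A further 223 had 6 PETs and 155 had 7, while 133 had 10 or more and 26 had 20 or more. The knockout library held 65276 PETs, 41.8% of the 156097 in control, and at that ratio 5 control PETs scale to 2.09 knockout PETs, fewer than the 3 that a count of 0 allows. At 8 control PETs the scaled value was 3.35, and 274 of the 7038 well-linked anchors with at least 8 PETs (3.89%) were absent.

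Width and PETs each moved with the absent share. Of well-linked anchors under 2 kb, 38.9% were absent (103 of 265, interval 33.0 to 45.0%), compared with 24.9% from 2 to 5 kb, 11.2% from 5 to 10 kb, 1.59% from 10 to 30 kb and 0.116% at 30 kb and over. A wider interval has more bases in which to overlap. Within the class of 2 to 5 kb, the share was 31.5% (338 of 1073) at 5 to 6 PETs, 20.2% (104 of 514) at 7 to 9 PETs and 7.49% (20 of 267) at 10 or more. Under 2 kb, 27.5% of anchors with 10 or more PETs were still absent (30 of 109, interval 19.4 to 36.9%), while from 10 to 30 kb the figure was 0.824% (26 of 3157).

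**Figure D1:**
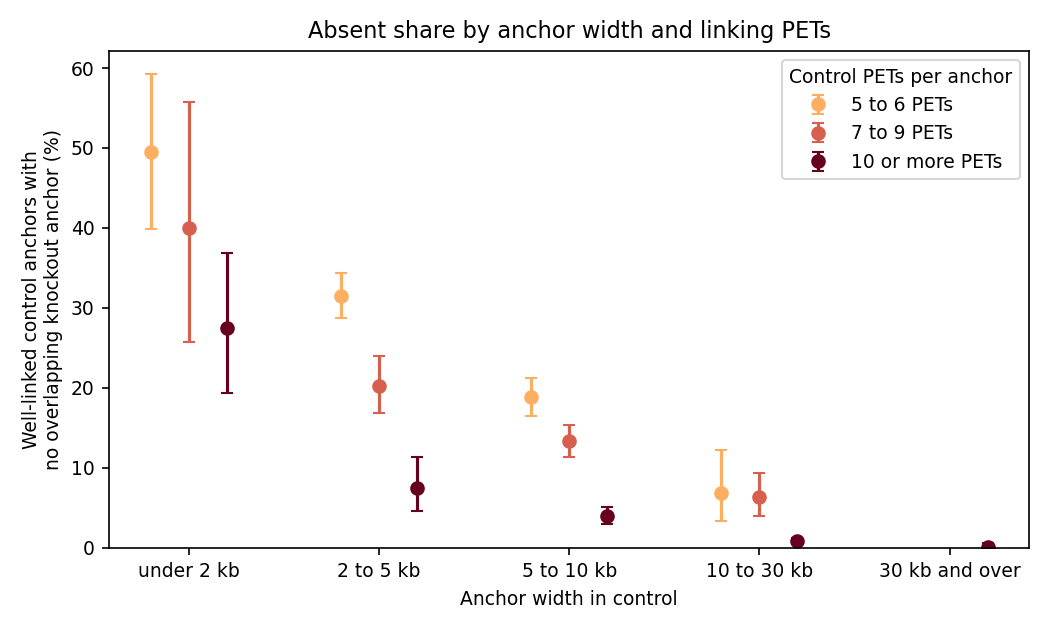
Share of well-linked control anchors that overlap no knockout anchor (y axis, %) by anchor width (x axis), with 1 colour per range of linking PETs and bars for exact 95% intervals of counting error. The share is highest under 2 kb at 5 to 6 PETs (49.5%) and lowest at 30 kb and over (0.116%), where all anchors held 10 or more PETs.

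The absent anchors lay at gene starts less often than the others and more often inside genes or away from any annotation. A protein-coding gene start of GENCODE vM1 was within 1 kb of 246 absent anchors (23.8%, interval 21.2 to 26.5%) and of 5625 of the others (60.9%, interval 59.9 to 61.9%). A protein-coding gene without its start was within 1 kb of 504 (48.8%) against 26.4%, and no annotated gene at all was within 1 kb of 234 (22.7%) against 9.74%. Exons of protein-coding genes overlapped 552 absent anchors (53.4%) against 81.2% of the others.

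The lower share at starts also held between anchors of like width. From 2 to 5 kb, a start was within 1 kb of 29.4% of the absent anchors and 51.8% of the others. From 5 to 10 kb the values were 20.3% and 51.6%, and from 10 to 30 kb 13.8% and 67.9%. Under 2 kb they were closer, 18.4% and 25.9%. Anchors of like width still differed in PETs. From 10 to 30 kb, 26 of 58 absent anchors held 10 or more, against 3131 of 3594 others. At 5 to 6 PETs the share at starts was still lower for absent anchors, but from 10 to 30 kb the gap narrowed (1 of 10 against 26.5%). The values were 28.7% and 49.1% from 2 to 5 kb, 14.9% and 38.1% from 5 to 10 kb, and 30.9% and 33.9% under 2 kb. CpG dinucleotides, which are dense at many housekeeping promoters, numbered a median of 11.5 per kb in absent anchors and 14.9 per kb in the others, and the median GC content was 44.5% and 45.5%. These medians are over all widths. By width, the CpG medians were about equal under 2 kb (13.5 and 13.4). They were lower in absent anchors from 2 to 5 kb (12.6 and 20.1), 5 to 10 kb (10.4 and 15.7) and 10 to 30 kb (8.25 and 14.3). Over the autosomes and the X chromosome, the absent share ranged from 7.72% on chromosome 19 to 13.0% on chromosome 15, and the 1 well-linked anchor of the mitochondrial genome was not absent.

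**Figure D2:**
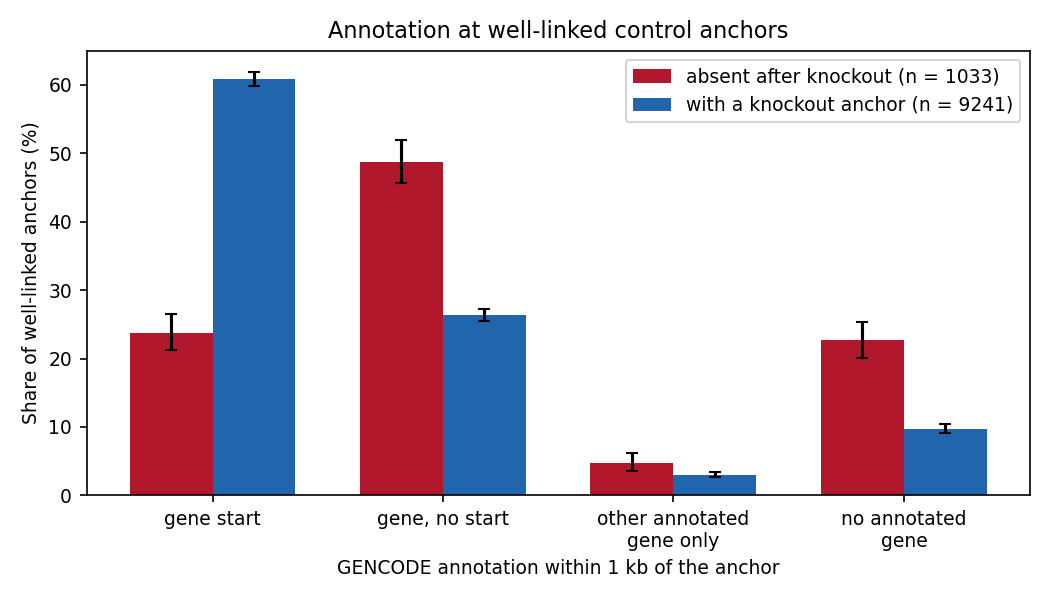
Share of well-linked control anchors (y axis, %) by what GENCODE vM1 annotates within 1 kb (x axis), for the 1033 absent anchors and the 9241 with a knockout anchor, with bars for exact 95% intervals of counting error. Gene starts make up 23.8% of the absent anchors and 60.9% of the others, and absent anchors have the larger share in the 3 remaining classes.

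Most absent anchors were linked by single PETs to many places. In 924 of them (89.4%) every pair held 1 PET, against 79.0% of the other well-linked anchors, and the median number of distinct partners was 6 against 11. The comparisons in this paragraph were not matched for PETs, of which absent anchors held a median of 6 against 12. A smaller set was built on 1 dominant pair: 60 absent anchors (5.81%) had at least 50% of their PETs in 1 pair, compared with 2.75% of the others. These 60 held 1873 of the 8423 PETs at absent anchors, and 31 of them (51.7%) shared an identical stretch of at least 100 bp with the partner of that pair, as did 125 of the 254 such anchors (49.2%) among the others. A read that lies wholly within such a stretch matches both of its copies. The alignment settings of the study discard reads with more than 1 equally good match. Over all absent anchors, 72 (6.97%) had a pair with a shared stretch and those pairs held 14.9% of the PETs, against 15.3% of the other anchors and 12.3% of their PETs.

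**Figure D3:**
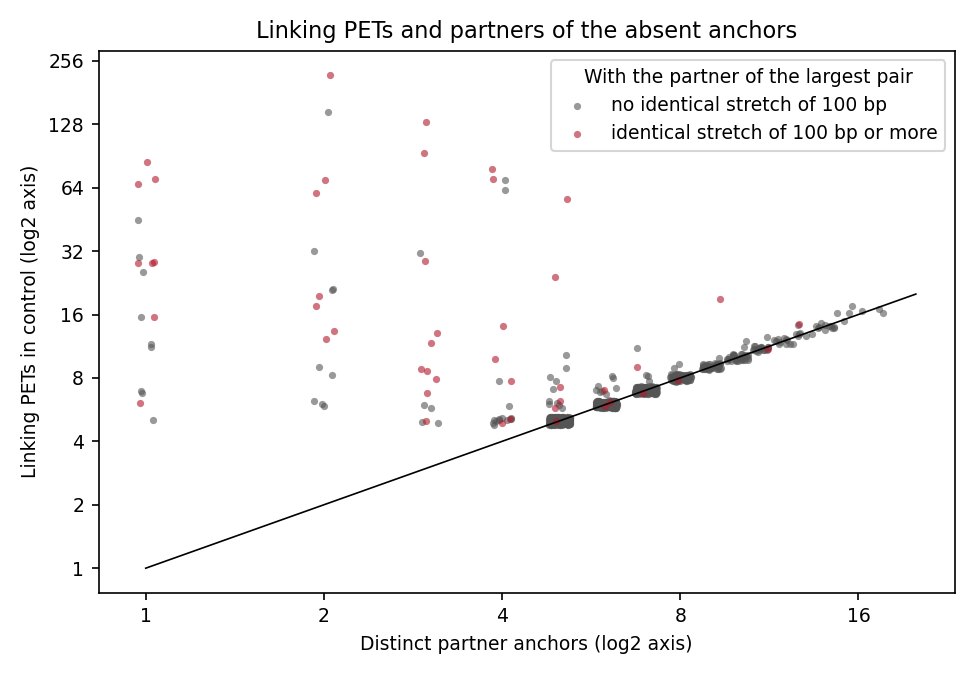
Linking PETs in control (y axis, log2) against distinct partner anchors (x axis, log2) for the 1033 absent anchors, with small random shifts so that points separate and a line at 1 PET per partner. Most points lie on the line, and the points far above it at 1 to 5 partners include many whose largest pair shares an identical stretch of at least 100 bp (red).

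The anchor with the most PETs overlapped an annotated exon where C330019G07Rik and Pisd lie on chromosome 5 (chr5:33080284-33081271, 988 bp). Pisd encodes phosphatidylserine decarboxylase, a mitochondrial enzyme of phospholipid synthesis. It held 221 PETs, of which 132 joined it to an anchor at Sfi1 on chromosome 11, a gene for a centrosome protein, with which it shares an identical stretch of 102 bp. The nearest knockout anchor was 2989 bp away and carried 220 PETs. Between the neighbourhoods of 10 kb around both ends, control held 383 PETs and the knockout 220, or 57.4%.

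The next 2 anchors by PETs were also next to a heavily linked knockout anchor. An anchor in an intron of Myo9b, which encodes an unconventional myosin, held 145 PETs, 144 of them in 1 pair over 459 kb on chromosome 8. Around both of its ends, 876 control PETs and 381 knockout PETs (43.5%) were counted. An anchor without annotation at chr5:110207545-110208599 held 131 PETs, 112 of them in 1 pair whose ends have an identical stretch of 111 bp in common. Around it and its partner 340 control PETs stood against 123 in the knockout (36.2%). In these 3 cases the anchor was missing while contacts between the same places persisted close by, at percentages on either side of the 41.8% of the whole library.

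For 19 of the 25 most linked absent anchors, no knockout PET joined the neighbourhoods of 10 kb around both ends. In 9 of the 19, a knockout anchor with other partners was present in both neighbourhoods. These counts are of anchors, and where both ends of 1 pair were absent each end was counted, so separate contacts are fewer. The pair with the most PETs among these joined an anchor at Zfp600 (chr4:146134262-146136042) to one at Gm13242 (chr4:145271149-145272259), 862 kb apart, with 87 PETs in control and 0 in the knockout. Both ends of the pair were absent anchors, and both lay in a stretch of chromosome 4 rich in related zinc finger genes. The Zfp600 anchor held 91 PETs with 3 partners, and the Gm13242 anchor held 87 PETs with that partner only. All anchors within 1 kb of Gm13242 together held 365 PETs in control and 218 in the knockout, whereas those at Zfp600 held 121 and 1. Gene totals, here and below, include the absent anchors, whose own knockout value is 0 by the rule. They are therefore not read as losses.

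These anchors are shown with the longest stretch that both ends of a pair have in common. The stretch of the Zfp600 and Gm13242 anchors was 115 bp long and is given on the plus strand.
Zfp600 and Gm13242, chr4:146135206-146135320 and chr4:145272067-145272181: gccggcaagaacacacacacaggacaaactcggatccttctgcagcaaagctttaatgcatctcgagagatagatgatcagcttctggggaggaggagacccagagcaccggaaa
A second pair on chromosome 8, without annotated genes at either end (chr8:73549778-73551164 and chr8:74423462-74425468, 872 kb apart), held 70 PETs in control and 0 in the knockout and had 273 bp in common in opposite orientation. Its middle 150 bp are given on the plus strand at the second anchor.
chr8:74424158-74424307: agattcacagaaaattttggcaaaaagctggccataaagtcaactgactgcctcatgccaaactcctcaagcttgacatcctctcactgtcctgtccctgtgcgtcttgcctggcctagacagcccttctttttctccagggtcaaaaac

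Other pairs of absent anchors shared sequence in the same way. On chromosome 12, 67 PETs joined chr12:20270405-20271940 to chr12:24444015-24445568, with 104 bp in common. On chromosome 4, 61 PETs joined an anchor at the noncoding Gm13147 to one at Gm13157, with 158 bp in common, and on chromosome 17, 28 PETs joined chr17:33373562-33375064 to chr17:33445904-33447256, with 119 bp in common. A pair on chromosome 6 with 20 PETs had 85 bp in common, and here 53 knockout PETs joined the 2 neighbourhoods, against 92 in control. Smaller pairs included 11 PETs between Dst and the anchor of Gfer and Syngr3, 9 between Gm9631 and chromosome 16 and 5 between Gpatch8 and Ube2j2, each with an identical stretch of at least 100 bp in common. Further anchors among the 25 with the most PETs also had 1 large pair, among them 2 anchors at Gm13247 on chromosome 4 with 30 and 28 PETs, each with 28 in 1 pair, and an anchor without annotation at chr16:71922845-71923839 with all of its 45 PETs in 1 pair. The Gm13247 anchors had 110 and 117 bp in common with their partners, and the chromosome 16 anchor had 69 bp. In all, 116 pairs joined 2 absent anchors, with 523 PETs. An anchor in Scaf8, which encodes an RNA Pol II-binding protein of transcription termination, had all of its 31 PETs in 1 pair with an anchor at Myl12b 68167 kb away and shared 65 bp with it. An anchor in Zc3h7a held 61 PETs with 4 partners, of which 23 joined it to an anchor at Kpna1 with which it shared no identical stretch of at least 100 bp.

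**Figure D4:**
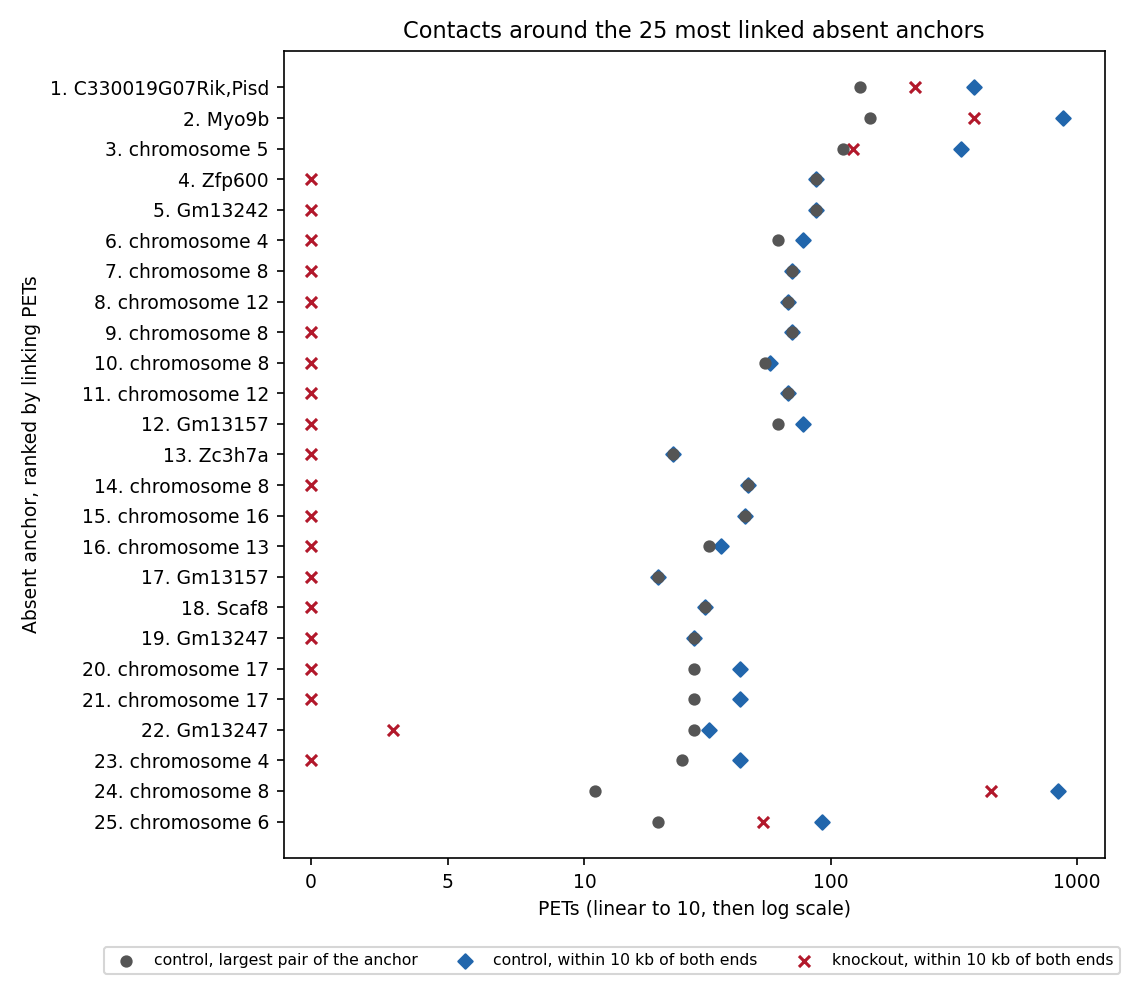
PETs (x axis, linear to 10 and then logarithmic) of the 25 most linked absent anchors (y axis, ranked by PETs), for the largest pair of the anchor in control and for all pairs within 10 kb of both ends of that pair in control and knockout cells. The knockout value is 0 for 19 of the 25, and the 3 anchors with the most PETs have 220, 381 and 123 knockout PETs close by.

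Among anchors without a dominant pair, the zinc finger gene Zfp111 had the most PETs of those named by gene list. Its wider anchor (chr7:24969493-24984064) held 17 PETs with 16 partners, and its second anchor (chr7:24984610-24993786), which carries the motif shown above, held 10 PETs with 10 partners. Partners of the first included Gnb2l1, which encodes a ribosomal scaffold protein (155 control PETs and 43 knockout PETs at the partner), Pabpc1, which encodes the cytoplasmic poly(A)-binding protein (126 and 39), and Sars, which encodes seryl-tRNA synthetase (63 and 23). Knockout anchors were found at 14 of the 16 partners of the first and 8 of the 10 partners of the second. Together with the anchor at Zfp93, which held 5 PETs, they mark a stretch of 87.1 kb with 3 well-linked anchors, all absent, and 32 PETs. The stretch was drawn from absent anchor to absent anchor, and the nearest knockout anchor lay 4873 bp beyond it.

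Of oxidative phosphorylation genes, 3 had an absent anchor, each at the gene start. The anchor at Uqcr10 and Zmat5 (chr11:4599063-4606840) held 14 PETs with 13 partners and the one at Cox7c (chr13:86182572-86186698) held 12 PETs with 12 partners. Uqcr10 encodes a subunit of respiratory complex III, and Cox7c one of complex IV. No knockout anchor lay within 1 kb of either gene, although one was 232 bp beyond the edge of the Cox7c anchor and one 10582 bp from the Uqcr10 anchor. The anchor at Cox7a1 and Capns1 held 9 PETs with 9 partners, and 2 knockout PETs were found at anchors of Cox7a1. Knockout anchors were present at 10 of the 13 partners of the Uqcr10 anchor, among them Hnrnpc, which encodes an RNA-binding protein of splicing, and at 10 of the 12 partners of the Cox7c anchor.

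In the mitochondrial ribosome, the anchor at the start of Mrps17 held 8 PETs with 8 partners, all of which had a knockout anchor, and the gene had 19 PETs in control and 1 in the knockout over all its anchors. The nearest knockout anchor was 75 bp from it. The anchor in Mrpl48 held 7 PETs, and the gene had 30 and 15. Among proteasome genes, the anchor at Psmb2, a core subunit, held 9 PETs and the gene had 41 control and 14 knockout PETs in all, while the anchor at the start of Psmd3, a regulatory subunit, held 7 PETs and the gene had 14 and 1. The tRNA synthetase gene Iars had 2 absent anchors inside the gene with 9 and 7 PETs, and all anchors of the gene together held 78 PETs in control and 24 in the knockout.

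In the general transcription machinery, the anchor at the start of Gtf2h4, a subunit of TFIIH, held 8 PETs with 8 partners, and knockout anchors were found at all 8 partners but not at the gene. An anchor inside Med13, a subunit of the Mediator kinase module, held 10 PETs with 9 partners, and the gene had 87 PETs in control and 7 in the knockout. Among cell cycle genes, anchors of 9 PETs lay at Cdc14a, a phosphatase, and Cenpq, a centromere protein, and anchors of 7 PETs at Bub1, a kinase of the spindle checkpoint, and Pola2, a subunit of DNA polymerase alpha. The replication-dependent histone gene Hist1h4m held the narrowest absent anchor, 558 bp with 9 PETs, and 3 of these joined it to Hist1h4n 18.6 kb away, with which it shares an identical stretch of at least 100 bp. Zfp41, another zinc finger gene, had an anchor at its start with 12 PETs and 12 partners, and knockout anchors lay at all 12 partners but not at Zfp41.

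Further zinc finger anchors were also linked mostly by single PETs. Zfp462 had 13 PETs with 13 partners, the anchors of Zfp740, Zfp106, Zfp60 and Zfp536 had 8 PETs each, and those of Zfp493, Zfp532, Zfp704 and Zfp239 had 7 each, in every case with as many partners as PETs. All control PETs of Zfp536 (8) and Zfp493 (7) were at their absent anchors. The knockout had 0 PETs at either gene, a value that the rule fixes at the absent anchors themselves. Zfp462 had 78 in control and 23 in the knockout, Zfp106 had 57 and 24, and Zfp239 had 59 and 16. Zfp932, with 10 PETs, differed in that 7 of them joined it to another absent anchor 64.3 kb away with which it shares an identical stretch of at least 100 bp.

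Translation factors were represented by 2 anchors in Eif3h, a subunit of initiation factor 3, with 7 and 6 PETs, and by 1 in Eif5 with 6 PETs, 55 bp from a knockout anchor. Eif3h had 36 PETs in control and 6 in the knockout over all its anchors, and Eif5 had 128 and 58. Among nucleolar proteins of ribosome synthesis, Wdr75 and Wdr36 had 6 PETs each and Utp14a had 5, with gene totals of 21 and 12, 21 and 9, and 27 and 14. The anchor at Snrpd3, a core protein of the spliceosomal snRNPs, held 5 PETs, and the one at Dnajb14, a chaperone cofactor, and Lamtor3 held 9. Further anchors with 8 or 7 PETs lay at Ccnd3, which encodes cyclin D3 (gene totals of 104 and 33), at Med18 of the Mediator head (17 and 2), and, as a neighbouring pair, at Cdc42ep1, whose symbol put it on the cell cycle list although it encodes an effector of the GTPase CDC42 (14 and 0). All control PETs of Cdc42ep1 were at this pair of absent anchors.

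Counted over whole lists, which were chosen with earlier results of these data known, none of the lists had a larger absent share than the 10.1% of all well-linked anchors. Zinc finger genes came closest with 29 of 307 anchors (9.45%, interval 6.42 to 13.3%), followed by the proteasome with 6 of 70 (8.57%), tRNA synthetases with 4 of 49 (8.16%) and cell cycle and DNA replication genes with 13 of 167 (7.78%). Replication-dependent histones and nucleolar proteins each had 5.56% (1 of 18 and 3 of 54), the general transcription machinery 4.95% (5 of 101), translation factors 3.80% (3 of 79), oxidative phosphorylation 3.09% (3 of 97) and the mitochondrial ribosome 2.63% (2 of 76). Chaperones (1 of 90) and splicing factors (1 of 95) had 1.11% and 1.05%. No absent anchor lay at any of 86 anchors of cytoplasmic ribosomal protein genes, 38 of pluripotency genes, 28 of p53 response genes and 11 of THAP family and cofactor genes.

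Anchors at listed genes were mostly wide, with medians from 8281 bp for zinc finger genes to 26399 bp for the THAP family among lists with 10 or more well-linked anchors, against 8846 bp for all. Among anchors under 10 kb, a comparison added after the widths were seen, 16.9% of all well-linked anchors were absent, compared with 21.4% at proteasome genes (6 of 28), 19.0% at tRNA synthetases (4 of 21), 18.8% at cell cycle genes (12 of 64), 14.6% at zinc finger genes (26 of 178), 11.1% at the general transcription machinery (4 of 36), 9.09% at oxidative phosphorylation genes (3 of 33), 8.70% at the mitochondrial ribosome (2 of 23), 5.56% at splicing factors (1 of 18) and 3.03% at chaperones (1 of 33). Translation factors had 2 of 15, nucleolar proteins 3 of 24 and histones 1 of 5, the last also a larger share than that of all well-linked anchors. At this width, 5 anchors of ribosomal protein genes, 14 of pluripotency genes and 9 of p53 response genes remained, and 0 of them were absent. The cell cycle list took in Cdc42ep1 and Cdc42ep3 by their symbols. Both absent anchors of Cdc42ep1 (2797 and 4452 bp) count among its 12, so no larger share is read for cell cycle genes.

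**Figure D5:**
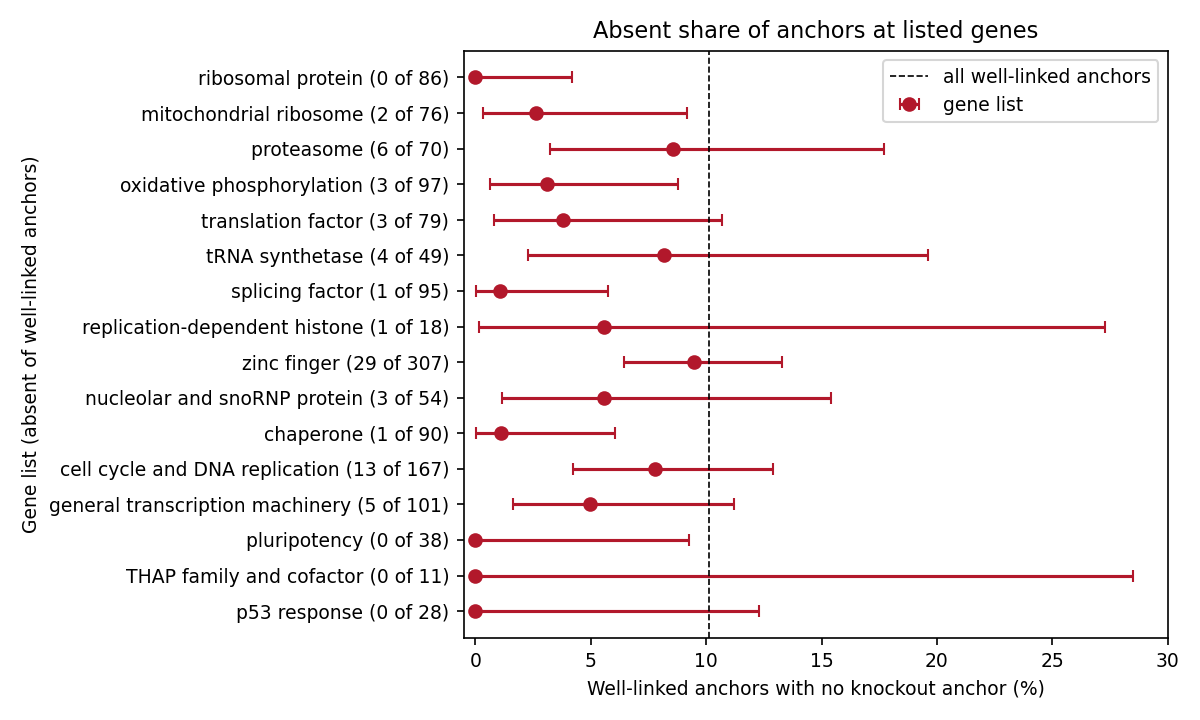
Share of well-linked control anchors without a knockout anchor (x axis, %) for each gene list with at least 10 such anchors (y axis), with exact 95% intervals of counting error and a dashed line at the 10.1% of all well-linked anchors. Each point lies to the left of the line, and the zinc finger list (9.45%) is nearest to it.

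Myc and the neighbouring long noncoding gene Pvt1, chosen after their values were seen, had 7 well-linked anchors, of which 4 were absent. The anchor at the start of Myc, which encodes a transcription factor of cell growth (chr15:61816069-61818802), held 6 PETs with 6 partners, none on chromosome 15, and the nearest knockout anchor was 50318 bp away. The other 3 absent anchors lay in Pvt1, with 5, 8 and 11 PETs. The 3 anchors of Pvt1 that overlapped knockout anchors held 20, 15 and 6 PETs. Knockout anchors were found at 5 of the 6 partners of the Myc anchor, at 4 of 5, 8 of 8 and 11 of 11 partners of the Pvt1 anchors, and elsewhere in Pvt1, the most linked with 8 PETs.

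Most absent anchors had no other absent anchor within 100 kb, although 572 had a control anchor outside the 1033 within 5 kb. When absent anchors within 100 kb of each other were joined, they formed 876 loci, of which 748 had 1 absent anchor, 110 had 2 and 18 had 3 or more. Loci of 3 included Cd72, Rusc2 and Tesk1 on chromosome 4 (24 PETs), Eral1 and BC017647 on chromosome 11 (23 PETs) and Ppp1r12a on chromosome 10 (17 PETs), all chosen after their values were seen. Because a locus ends at an absent anchor, knockout anchors can lie just outside it: over all of its anchors Ppp1r12a had 148 PETs in control and 47 in the knockout, and BC017647 had 196 and 82, whereas Cd72, Tesk1 and Eral1 had 16 each in control and 0 in the knockout.

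Knockout contacts were often close to an absent anchor. The nearest knockout anchor was a median of 10420 bp away (2 to 1902368 bp), within 1 kb for 192 absent anchors (18.6%), within 10 kb for 508 (49.2%) and within 100 kb for 904 (87.5%). For 934 (90.4%), that nearest anchor overlapped a control anchor of its own. In the flanks of 50 kb around the absent anchors, the other anchors held 49207 PETs in control and 19926 in the knockout, or 40.5% (interval 39.8 to 41.2%), against 43.5% elsewhere. When anchors with any pair over 10 PETs were left out, the values were 34.8% and 36.3%.

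The threshold itself cut through similar anchors. Of control anchors with 4 PETs, just outside the rule, 735 of 1913 (38.4%) overlapped no knockout anchor, and of those with 5 PETs 27.8% of 1371 did not. By position, 34 absent anchors lay within 100 bp of a knockout anchor, the closest at Kank3 (2 bp, 5 PETs), Phrf1 (9 bp, 7 PETs) and Msl2 (12 bp, 6 PETs). On the other side, 9 well-linked anchors overlapped a knockout anchor by at most 100 bp, the least at Actn1 (12 bp, 7 PETs), Zfp498 (26 bp, 5 PETs) and Btbd10 (37 bp, 5 PETs).

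Most links of the absent anchors went to a partner that had a knockout anchor. The absent anchors had 6552 links to 4260 distinct partners, and 88.6% of links went to a partner with a knockout anchor (90.4% for the other well-linked anchors). By PETs the values were 81.4% and 91.9%, and by distinct partners 83.2% and 59.5%. Pairs between 2 absent anchors held 523 PETs, counted at each end, and partners in them lack a knockout anchor by the rule. The lower value by PETs is thus partly set by the selection. For 502 absent anchors (48.6%) each partner had a knockout anchor, and for 9 no partner did. The partners were wide and well linked, with a median of 31 PETs and 16145 bp per link, and 65.3% of links went to a partner at a gene start (33 PETs, 16904 bp and 68.0% for the others).

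The most frequent partner was an anchor of 1376 bp at Gm10800 (chr2:98506240-98507615), linked to 68 absent anchors (6.58%), although 14.2% of all well-linked anchors were linked to it. It carried 9614 PETs in control and 7485 in the knockout. Next came the anchors at Frmd8 with 18 absent anchors and at the metallothionein genes Mt1 and Mt2 with 15, followed by those at Gm10801, at Fblim1 and Spen, and at Eef1a1, which encodes translation elongation factor 1 alpha, with 11 each. The Gm10801 anchor carried 1317 PETs in control and 2341 in the knockout. Each of these 6 anchors was linked to a smaller share of absent anchors than of all well-linked anchors, but absent anchors had fewer links each, and as a share of links the direction turned: Gm10800 took 1.04% of the 6552 links of absent anchors and 0.656% of the 222754 links of all well-linked anchors, Frmd8 0.275% and 0.238%, and Mt1 and Mt2 0.229% and 0.169%.

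Links within a chromosome made up 740 of the 6552 links (11.3%), against 9.21% for the other anchors, and they were shorter, with a median distance of 1.69 Mb against 12.7 Mb. Of these links, 48.1% spanned under 1 Mb (34.0% for the others). Partners on the same chromosome had a knockout anchor in 81.1% of links, against 88.9% for the others. By PETs, 25.2% of those at absent anchors (2125 of 8423) were intrachromosomal and 16.0% of those at the others. A few anchors with 1 large pair weigh on the first value, among them Myo9b with 144 intrachromosomal PETs and chr5:110207545-110208599 with 131. The share was not computed without them, so it is not read as a trait of the absent anchors in general.

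Most genes at absent anchors had a knockout anchor elsewhere. Protein-coding genes within 1 kb of an absent anchor numbered 782, and for 555 of them (71.0%) another part of the gene had one. The remaining 227 (29.0%) had none. Of the 12502 genes at any control anchor 1399 (11.2%) had none, but the 782 genes were selected through an absent anchor, so nothing is read from the difference. A start lay at the absent anchor for 265 genes, of which 156 had no knockout anchor. Among the 227 genes, those with many control PETs, named after their values were seen, included Itgb1bp2 (28 PETs), which encodes an integrin-binding protein of muscle, Zfp111 (27), Mcc (20) and Atpaf1 (17), an assembly factor of mitochondrial ATP synthase.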

How the data were processed

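The data were 1 control and 1 Ronin knockout set of RNA Pol II ChIA-PET interactions from mouse ESCs. Per the study's methods and the submitters' processing notes, linkers were removed with cutadapt and mates were aligned to mm9 with Bowtie 1.1.1. The alignment settings discarded mates with more than 1 equally good match. The authors collapsed duplicates, called peaks with MACS 1.4.2 and removed intrachromosomal PETs under 4 kb. They kept PETs with both ends in peaks and merged 2 experiments per condition. The deposited values used were raw PET counts per pair of peaks; their counts per peak were not used. The deposited distance between peaks, a signed score in bp, was read only to tell intrachromosomal pairs, and the authors' adjusted p-value per pair was used in 1 alternative.

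PETs were summed per distinct anchor. Peak starts were taken as zero-based and are printed 1-based. Anchors lay within the chromosome lengths of NCBIM37, and genes were those of GENCODE vM1 within 1 kb. Overlap was any shared bp. Anchors of a pair were searched for identical stretches of at least 100 bp on either strand. The anchors and gene lists were chosen with earlier results of these data known. The rule for names took the 25 absent anchors with the most PETs, those at a listed gene with at least 7 PETs or in a list with 3 or fewer, those with an exact motif, pairs of absent anchors with at least 3 PETs, and up to 5 on either side of the threshold. Of those without a gene name, and of those next to the threshold, only some are given. Other names are marked as chosen after their values were seen. Some results on single genes are not reported here.

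Libraries held 156097 and 65276 PETs. Counting and overlap functions were tested on simulated data. Intervals are exact binomial (Clopper-Pearson) at 95%. Python 3.11.15, numpy 2.4.6, pandas 2.3.3, scipy 1.17.1, pysam 0.24.0, samtools 1.23.1 and matplotlib 3.10.9 were used.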

Additional observations from a re-analysis of the deposited data

How the results depend on the processing

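No paired analysis was possible because each condition had 1 merged set of interactions. With a minimum of 3 PETs, 3158 control anchors (20.9%) were absent, and with 10 PETs 133 (2.28%). With intrachromosomal rows only they numbered 207 (14.8%), and 47 of these were among the 1033. With anchors extended by 1 kb the absent share was 8.19%, and by 5 kb 647 (6.30%). The number stayed within 1.5 times of 1033 with adjusted p-values under 0.05 (1032), an extension by 1 kb (841), a minimum of 5 partners (964) and without pairs sharing a stretch (1011). Knockout anchors without a control anchor went from 32 to 108 at 3 PETs and to 19 at 10 PETs, with an extension by 1 kb and without pairs sharing a stretch, to 11 with an extension by 5 kb and to 12 with a minimum of 5 partners. Absent anchors were narrower than the others at the median under each of the 8 alternatives. Most absent anchors held too few PETs for a count of 0 in the smaller knockout library to differ from the library ratio, and an absent anchor in a list of linked peaks does not show that RNA Pol II was lost there.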
